A study of Arabidopsis thaliana with 29 samples.

Results

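Transcript levels in the Arabidopsis thaliana mutant pp7l after 6 days without water (6 D) were compared with those at the start of the dry period (0 D). Loci entered the comparison when they had at least 1 TPM (the authors' unit of abundance, a length-adjusted share of each library) in at least 3 of these 6 libraries, which held for 15522 of the 33681 loci in the table. Both groups carried the pp7l mutation in the Col-0 background and had 3 libraries each, out of 29 libraries in 10 groups of the series. RNA came from whole plants that were raised for 7 days on plates, moved to soil and grown under 16 h of light per day, and that were 3 weeks old when watering stopped. The labels name no watered plants of the later age, so the lack of water and 6 days of age cannot be told apart in this comparison. They also do not say whether replicates were separate plants or pots, and p-values then measure only the spread between these libraries. Sample and series labels name different alleles, and the mutant is written pp7l.

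PP7L encodes a nuclear protein related to protein phosphatases that is needed for normal chloroplast development. Plants that lose water make abscisic acid (ABA), which closes stomata and, through kinases and bZIP transcription factors, turns on genes for protective proteins, compatible solutes, cuticle lipids and pigments. Clade A protein phosphatases 2C restrain that pathway, and soluble receptors relieve the restraint when they bind ABA. Growth, photosynthesis and protein synthesis genes are commonly lower in dry leaves.

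After 6 days, the transcripts with the largest rises encoded lipid transfer proteins, late embryogenesis abundant (LEA) proteins and anthocyanin enzymes. The lipid transfer protein gene LTP3 (AT5G59320) went from a mean of 1.34 ± 0.304 to 224 ± 5.98 TPM (SD, n = 3). All called genes of light harvesting, the photosystems and the Calvin-Benson cycle were lower, and of 16 genes of tetrapyrrole synthesis, which makes chlorophyll, 10 were lower and 2 higher. GER3 (AT5G20630), which encodes a germin-like protein, went from 304 ± 5.67 to 29.8 ± 1.8 TPM (SD, n = 3). Of the 15522 loci tested, 9702 (62.5%) passed the threshold in limma with Benjamini-Hochberg adjustment at 0.05. They comprised 7215 higher (46.5%) and 2487 lower (16.0%) loci. At least 2-fold changes on the log2(TPM + 1) scale were found for 1310 higher (8.44%) and 494 lower loci (3.18%).

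The split between higher and lower loci depended on the scaling. The median locus was higher by 0.28 on the log2 scale at 6 D, and 69.8% of all TPM at 0 D came from plastid loci, so nuclear values are shares of a small remainder. After median-of-ratios scaling, which brought the median change to -0.01, 8708 of 15291 loci (56.9%) passed, with 4104 higher (26.8%) and 4604 lower (30.1%). With plastid, mitochondrial and rRNA loci left out and the TPM rescaled to the rest, 10246 of 18722 loci (54.7%) passed, with 7719 higher (41.2%) and 2527 lower (13.5%). The deposited TPM and the median-of-ratios scaling, called both scalings below, had 4104 higher and 2485 lower loci in common, and 10 loci were called in opposite directions. Changes below are therefore given relative to the median locus (the fitted log2 change minus 0.28), and counts are given for the TPM as deposited and after scaling. All fitted changes are on the log2(TPM + 1) scale, which understates the change of genes with few TPM.

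**Figure D1:**
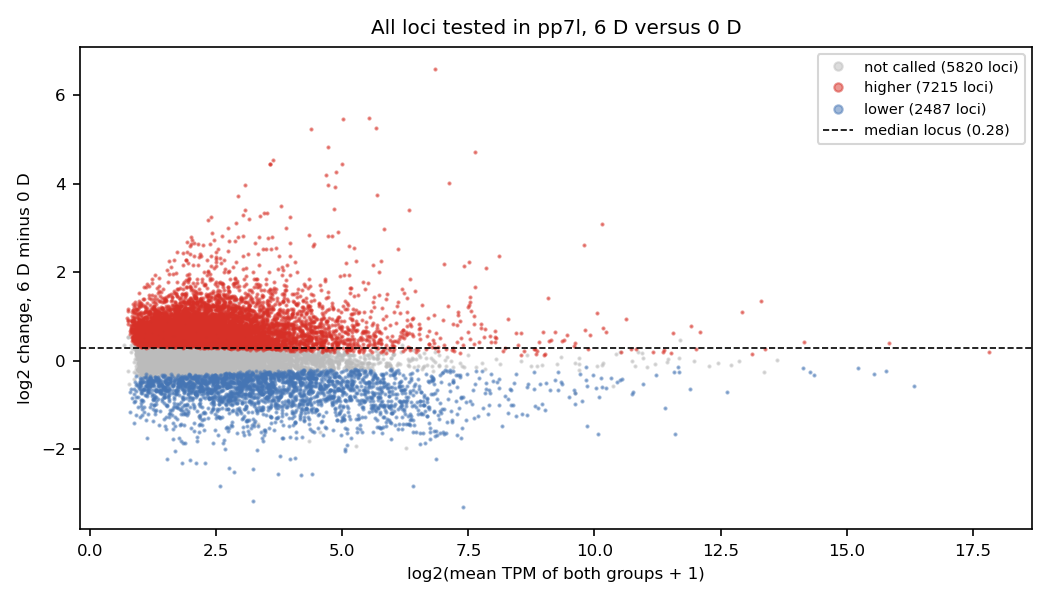
Each point is 1 of the 15522 loci tested, with the log2 of its mean TPM over both groups plus 1 on the horizontal axis and its fitted log2 change from 0 D to 6 D in pp7l on the vertical axis. Red points are the 7215 loci called higher, blue points the 2487 called lower, and the dashed line is the median locus at 0.28; the cloud lies above 0 rather than around it.

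The 6 libraries were alike within groups. Spearman correlations over loci were 0.9657 to 0.9718 within a group and 0.8421 to 0.8592 between groups, as a description. Among 2819 loci with at least 10 TPM in both groups, the median coefficient of variation was 7.6% at 0 D and 5.64% at 6 D. The groups did not overlap for 66.5% of loci tested, with every 6 D library above every 0 D library for 49.2% and below for 17.3%. Between 21027 and 21857 loci were above 0 in a library. Read numbers are not given, so depth is unknown. The PP7L transcript itself (AT5G10900) was below the filter, at 0.375, 0.672 and 0.712 TPM at 0 D and 0.924, 0.924 and 0.789 TPM at 6 D, and does not check the genotype. In whole plants, fewer cells of a type and less RNA per cell cannot be told apart. Nuclear rRNA loci took 0.0159% to 0.0263% of TPM in the 0 D libraries and 0.0202%, 0.966% and 0.187% in the 6 D libraries. The part of rRNA in the results was not tested beyond the fit that leaves rRNA and organelle loci out.

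Genes of ABA response and dehydration protection were mostly higher at 6 D. Of 26 such markers, all of which were tested, 24 were called higher and 1 lower, with a median relative change of 1.52, and 22 were higher and 2 lower after median-of-ratios scaling. For this and every later list the shares over all loci tested were 46.5% higher and 16.0% lower, and 26.8% and 30.1% after scaling, around a median that is 0 on the relative scale. Of the 26 markers, 20 rose at least 2-fold on the deposited TPM. LEA4-5 (AT5G06760), a LEA protein of seeds and dry tissues, had 0, 0.112 and 0 TPM at 0 D and 21.4, 21.8 and 21.6 TPM at 6 D. The dehydrin gene RAB18 (AT5G66400) had 0.988, 3 and 2 TPM at 0 D and 48.7, 56 and 58.3 TPM at 6 D. LTI65 (AT5G52300), also known as RD29B, had 0.0356, 0 and 0 TPM at 0 D and 5.93, 5.25 and 5.39 TPM at 6 D. Every 6 D library lay above every 0 D library, which was a condition for the choice of LEA4-5 and RAB18. LEA4-5 and LTI65 were below 1 TPM in every 0 D library. They passed the filter only through the 6 D group, so their separation was fixed in advance. The relative log2 changes were 4.16 for LEA4-5 (SE 0.12, limma, Benjamini-Hochberg adjusted p = 9.26e-11), 3.98 for RAB18 (SE 0.20, adjusted p = 8.62e-09) and 2.40 for LTI65 (SE 0.12, adjusted p = 8.79e-09).

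The promoters of these genes are shown because they hold several copies of the core of the ABA-responsive element, the sequence bound by ABA-activated bZIP factors. The 250 bases before the annotated start come from the RefSeq genome and annotation of build TAIR10.1, written 5′ to 3′ in the direction of the gene. Capitals mark every match to ACGTGT or ACGTGG on either strand, and overlapping matches run together. The window of LEA4-5 has 4 matches, that of RAB18 3, that of LTI65 4 and that of AT3G02480, a LEA family gene described below, 3. In LEA4-5 and AT3G02480 the longest marked stretch matches on both strands around a shared ACGT and is counted for each strand.
LEA4-5 chr5:2090431-2090680, minus strand: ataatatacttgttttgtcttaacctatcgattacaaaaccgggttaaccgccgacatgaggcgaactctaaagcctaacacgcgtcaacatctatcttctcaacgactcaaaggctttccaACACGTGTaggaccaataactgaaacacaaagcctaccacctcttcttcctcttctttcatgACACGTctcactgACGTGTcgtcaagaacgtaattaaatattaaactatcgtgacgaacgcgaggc
RAB18 chr5:26519448-26519697, minus strand: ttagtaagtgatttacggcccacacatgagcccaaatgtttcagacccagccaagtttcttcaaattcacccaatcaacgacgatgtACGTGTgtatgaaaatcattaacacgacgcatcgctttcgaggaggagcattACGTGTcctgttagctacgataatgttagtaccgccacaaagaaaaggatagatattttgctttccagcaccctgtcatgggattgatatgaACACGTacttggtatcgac
LTI65 chr5:21236771-21237020, plus strand: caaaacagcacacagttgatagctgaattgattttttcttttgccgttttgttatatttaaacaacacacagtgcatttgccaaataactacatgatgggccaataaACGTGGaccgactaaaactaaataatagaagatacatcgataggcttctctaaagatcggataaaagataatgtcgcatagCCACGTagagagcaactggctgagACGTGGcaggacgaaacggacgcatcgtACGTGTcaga
AT3G02480 chr3:511970-512219, plus strand: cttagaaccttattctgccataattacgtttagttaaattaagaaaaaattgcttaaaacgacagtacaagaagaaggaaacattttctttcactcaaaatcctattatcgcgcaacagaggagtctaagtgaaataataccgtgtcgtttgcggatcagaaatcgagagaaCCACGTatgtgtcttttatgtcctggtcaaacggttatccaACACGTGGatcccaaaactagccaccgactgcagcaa
Among all 15351 nuclear loci tested with a promoter in the annotation, 17.2% had at least 1 match in this window. The share was 29.9% among the 566 promoters of loci called higher under both scalings with a relative change of at least 1, and 17.9% among the 972 promoters of loci called lower by as much. In the ABA and dehydration list 12 of 26 promoters had a match, and in the clade A phosphatase list 5 of 8. Lists that did not rise as a whole also held matches, with 9 of 18 circadian clock genes and 8 of 20 light-harvesting genes. The G-box CACGTG, which can overlap both cores, was in 7.5% of all promoters, 14% of the strongly higher and 5.8% of the strongly lower ones. A match describes the letters in the window and does not show a bound site.

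Other members of the ABA list covered several protective functions. KIN1, a small cold- and ABA-induced protein, had a relative change of 3.64, from 2.59 ± 0.604 to 53.1 ± 3.06 TPM (SD, n = 3). The homeodomain factor HB-7, which is induced by ABA, rose from 0.926 ± 0.101 TPM (SD, n = 3) with a relative change of 2.98. GolS2, a galactinol synthase of raffinose synthesis, rose from 8.87 ± 0.8 to 58.8 ± 3.41 TPM (SD, n = 3), and P5CS1, which makes the proline precursor, from 16.8 ± 1.96 to 79.1 ± 4.55 TPM (SD, n = 3). The abundant dehydrin ERD14 rose less, from 104 ± 1.96 to 263 ± 12.7 TPM (SD, n = 3), a relative change of 1.05. KIN1 has a near copy, KIN2, which rose from 294 ± 3.93 to 452 ± 21.4 TPM (SD, n = 3), and reads may be shared between them. NCED3, a key enzyme of ABA synthesis, was called higher on the deposited TPM but not after median-of-ratios scaling, at 2 ± 0.0462 and 3.11 ± 0.467 TPM (SD, n = 3). COR15B, a cold-regulated chloroplast protein, went the other way and fell from 102 ± 6.6 to 45.6 ± 3.01 TPM (SD, n = 3), while its near copy COR15A rose from 56.4 ± 1.58 to 111 ± 3.94 TPM (SD, n = 3).

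The phosphatases that restrain ABA signalling were higher as a family. Of 9 clade A genes 8 were tested, and all 8 were called higher under both scalings, with a median relative change of 1.43. All 8 rose at least 2-fold on the deposited TPM, although ABI1 had a relative change of 0.83. The genes HAI1, HAI2 and HAI3 were below 1 TPM in every 0 D library. They passed the filter only through the 6 D group and could only come out higher. PP2CA (AT3G11410) had 11.1, 13.2 and 11.6 TPM at 0 D and 44.5, 47 and 53.1 TPM at 6 D (relative change 1.64, SE 0.09, limma adjusted p = 1.54e-08). HAI1 rose from 0.465 ± 0.0411 to 6.45 ± 0.291 TPM (SD, n = 3), and HAI3 was listed at 0 in all 3 libraries at 0 D and had 3.86 ± 1.04 TPM at 6 D (SD, n = 3). The ninth gene, AHG1, reached at most 0.211 TPM. The ABA receptors were divided. Of 7 tested, 3 were higher and 3 lower (2 and 3 after scaling). The receptor genes RCAR1 (PYL9) and PYL7 rose, with relative changes of 0.83 and 0.71. RCAR3 (PYL8), PYL4 and PYL5 fell, with relative changes of -0.84, -0.96 and -1.14.

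**Figure D2:**
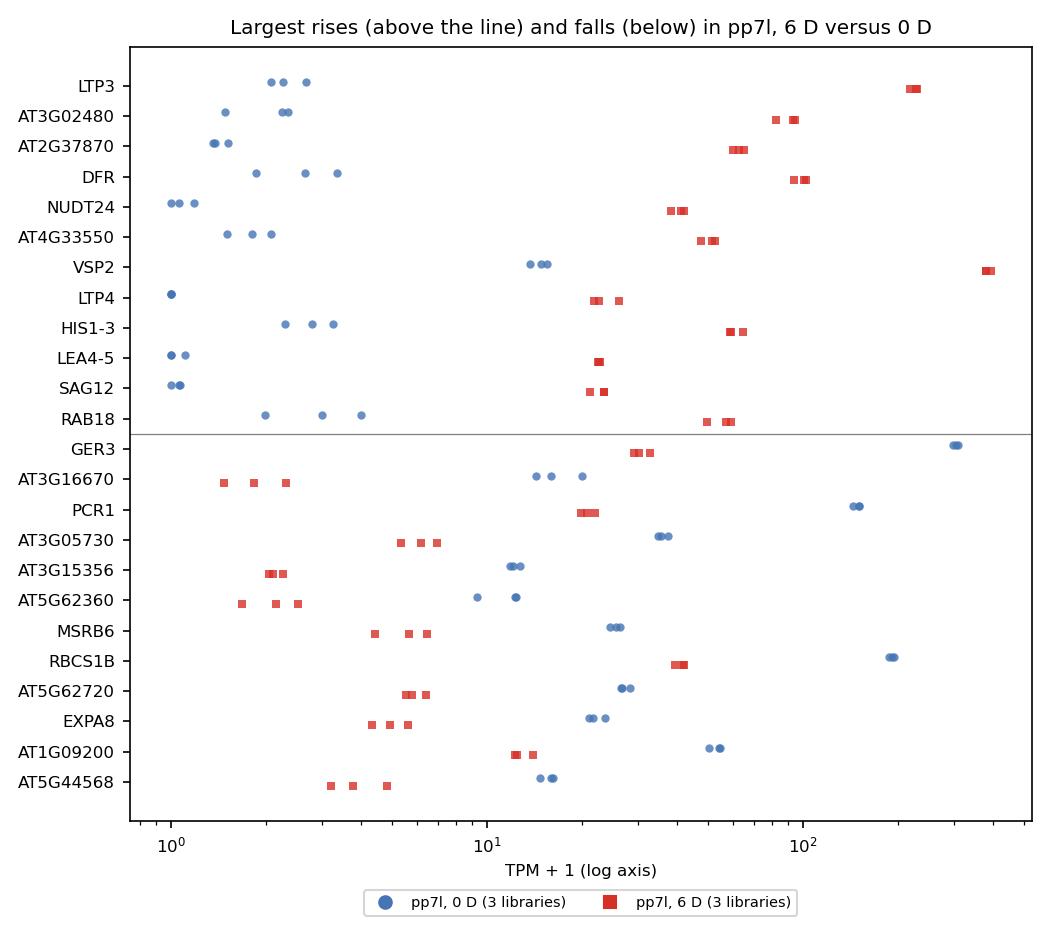
TPM plus 1 on a log axis for the 12 largest rises (above the line) and the 12 largest falls (below it) among called genes that averaged at least 10 TPM in either group and whose groups did not overlap; circles are the 3 libraries at 0 D and squares the 3 at 6 D. Separation was a condition of the choice, and the levels run from LTP3 at 1.08 to 1.67 against 218 to 229 TPM down to AT5G44568 at 13.7 to 15.2 against 2.21 to 3.82 TPM.

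The 12 largest rises included 4 genes with a lipid transfer product name. LTP3 and LTP4 encode lipid transfer proteins, which carry lipids to the cuticle and are linked to dry conditions. AT2G37870 and AT4G33550 are annotated to a superfamily that also holds bifunctional inhibitors and seed storage albumins. LTP3 had 1.08, 1.27 and 1.67 TPM at 0 D and 227, 218 and 229 TPM at 6 D, a mean 167-fold higher (relative log2 change 6.31, SE 0.10, limma adjusted p = 7.98e-13). LTP4, a close relative in sequence, was listed at 0 in all 0 D libraries and had 21.7, 25.2 and 20.8 TPM at 6 D. Reads of such similar genes can be shared between them, so the division between LTP3 and LTP4 is uncertain. The superfamily members AT2G37870 and AT4G33550 reached 59.2 to 64 TPM and 46.5 to 51.6 TPM from at most 0.512 and 1.07 TPM. All 4 were at no more than 1.67 TPM in every 0 D library. LTP4 and AT2G37870 were below 1 TPM there. They passed the filter only through the 6 D group, so their separation was fixed in advance.

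Wax genes moved less than these. In the list of 12 tested genes of cuticular wax and lipid transfer, 9 were higher and 1 lower, with a median relative change of 0.36, and 6 were higher and 3 lower after scaling. MYB96, an ABA-dependent activator of wax genes, rose from 2.02 ± 0.326 to 5.9 ± 0.815 TPM (SD, n = 3). CER1, of alkane synthesis, rose from 10.6 ± 1.32 to 18.1 ± 1.03 TPM, and KCS6, of fatty acid elongation, from 55.3 ± 1.51 to 90.5 ± 1.09 TPM (SD, n = 3). LTP5 fell from 72 ± 2.77 to 62.5 ± 3.23 TPM (SD, n = 3), so that the sense of change within the lipid transfer family was not shared.

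Other genes among the 12 largest rises had different roles. AT3G02480, a LEA family gene, had 0.478, 1.24 and 1.35 TPM at 0 D and 93.3, 92.2 and 81.3 TPM at 6 D (relative change 5.22, SE 0.15, limma adjusted p = 1.63e-10). NUDT24, a nudix hydrolase, had 0.184, 0 and 0.0639 TPM and then 40.1, 37.2 and 41.2 TPM. HIS1-3, a linker histone known to be induced by drought, had 2.27, 1.3 and 1.8 TPM and then 57.9, 63.5 and 58.4 TPM. All 3 genes were at no more than 2.27 TPM in the 0 D libraries, and separation of the groups was a condition of their choice. NUDT24 was below 1 TPM in every 0 D library, so it passed the filter only through the 6 D group.

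Anthocyanin and flavonoid genes rose along most of their pathway. Of 16 genes 15 were tested, and 14 were higher and 0 lower, with a median relative change of 2.52 (12 higher and 0 lower after scaling). On the deposited TPM 12 rose at least 2-fold. TT4 (AT5G13930), the chalcone synthase at the entry, had 15.2, 13.6 and 16.3 TPM at 0 D and 257, 259 and 261 TPM at 6 D. DFR (AT5G42800), dihydroflavonol reductase, had 0.864, 1.66 and 2.35 TPM at 0 D and 100, 101 and 92.5 TPM at 6 D. The relative changes were 3.74 for TT4 (SE 0.08, limma adjusted p = 5.68e-12) and 4.99 for DFR (SE 0.17, limma adjusted p = 4.44e-10). Late enzymes and modifiers followed, with LDOX at a relative change of 3.93, the glutathione transferase GSTF12 at 3.47 and the glycosyltransferase UF3GT at 2.92. PAP1, the MYB activator of the pathway, rose from 1.93 ± 0.155 to 19.1 ± 1.48 TPM (SD, n = 3). FLS1, which diverts intermediates to flavonols, did not pass, at 2.35 ± 0.502 and 2.37 ± 0.312 TPM (SD, n = 3).

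Jasmonate genes were also mostly higher. Of 17 tested, 14 were higher and 1 lower, with a median relative change of 0.53, and 12 were higher and 2 lower after scaling. VSP2 (AT5G24770), a vegetative storage protein used as a jasmonate marker, had 12.7, 13.8 and 14.5 TPM at 0 D and 378, 378 and 393 TPM at 6 D (28.1-fold, relative log2 change 4.43, SE 0.07, limma adjusted p = 7.98e-13). VSP1 rose from 5.57 ± 0.931 to 45.2 ± 4.52 TPM and LOX2, a lipoxygenase of jasmonate synthesis, from 99.1 ± 9.27 to 270 ± 23 TPM (SD, n = 3). VSP1 and VSP2 are alike in sequence, so the division between them is uncertain. The repressor genes JAZ1, JAZ5 and JAZ6 rose, with relative changes of 1.03, 0.83 and 0.86. PDF1.2, a defensin of the jasmonate and ethylene branch, fell from 3.91, 3.38 and 4.91 TPM to 0, 0.86 and 0 TPM (relative change -2.31, SE 0.22, limma adjusted p = 1.13e-05). It was below 1 TPM in every 6 D library. It passed the filter only through the 0 D group and could only come out lower.

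Salicylic acid defence genes were lower in the main. Of 15 tested, 2 were higher and 10 lower, with a median relative change of -0.98, and 1 was higher and 12 lower after scaling. PR1 (AT2G14610), a pathogenesis-related protein, had 147, 159 and 160 TPM at 0 D and 42.4, 44.7 and 39.8 TPM at 6 D (3.67-fold lower, relative log2 change -2.13, SE 0.07, limma adjusted p = 2.08e-09). PR5 fell from 36.3 ± 3.78 to 12.2 ± 0.213 TPM, the salicylate synthesis gene EDS16 (ICS1) from 5.5 ± 0.749 to 3.02 ± 0.593 TPM and the lipase-like regulator PAD4 from 7.05 ± 0.86 to 3.58 ± 0.273 TPM (SD, n = 3). WRKY70, a transcription factor of the same branch, rose from 14.3 ± 2.42 to 21.9 ± 1 TPM (SD, n = 3).

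Senescence and chlorophyll breakdown genes were partly higher. Of 14 tested, 10 were higher and 0 lower, with a median relative change of 0.57 (8 higher and 1 lower after scaling). SAG12 (AT5G45890), a cysteine protease of senescing leaves, had 0, 0.0689 and 0.0629 TPM at 0 D and 21.6 ± 1.27 TPM at 6 D (SD, n = 3, relative change 4.16, SE 0.12, limma adjusted p = 9.44e-11). SAG12 was below 1 TPM in every 0 D library. It passed the filter only through the 6 D group, so its separation was fixed in advance. The senescence factor NAP rose from 0.718 ± 0.135 to 8.51 ± 1.41 TPM (SD, n = 3), and it too passed the filter only through the 6 D group. PPH and NYE1, which remove the tail and the magnesium of chlorophyll, rose with relative changes of 1.32 and 1.12. SAG13 and SEN1 did not pass the threshold, with relative changes of -0.19 and -0.11.

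Sulfate and trehalose phosphate genes were mostly higher, and starch genes were divided. In the sulfate list 8 of 10 tested genes were higher and 0 lower (7 and 2 after scaling), with a median relative change of 0.80. ATSDI1, a sulfur-deficiency marker, rose from 0.805 ± 0.383 to 10.6 ± 0.943 TPM, and the sulfate-reducing enzyme gene APR1 from 7.82 ± 1.82 to 24.2 ± 1.42 TPM (SD, n = 3). GBSS1, the granule-bound starch synthase, rose from 3.92 ± 0.266 to 34.3 ± 3.76 TPM (SD, n = 3), although the 15 starch and sucrose genes were divided between 8 higher and 4 lower (6 and 7 after scaling), with a median of -0.01 and a share of higher genes near the 46.5% over all loci. The starch-degrading genes BAM1 and SEX1 rose, with relative changes of 1.30 and 1.02, and APL1, a subunit of the enzyme that supplies starch synthesis, fell, with -0.70. Of 9 trehalose phosphate genes 8 were higher and 0 lower (5 and 0 after scaling), led by TPS8 at 1.1.

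Photosynthesis genes of the nucleus were called lower or did not pass, against 16.0% lower over all loci (30.1% after scaling). Of 20 light-harvesting genes 0 were higher and 14 lower (0 and 20 after scaling), with relative changes from -1.76 to -0.16. Of 26 nuclear photosystem and electron carrier genes 0 were higher and 23 lower (0 and 26 after scaling), with a median of -0.80. Of 17 Calvin-Benson cycle genes 0 were higher and 16 lower (0 and 17 after scaling), with a median of -0.94.

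The size of these falls differed between genes with like roles. RBCS1A (AT1G67090), the main small subunit of Rubisco, had 4754, 4562 and 4771 TPM at 0 D and 1513, 1464 and 1474 TPM at 6 D (3.16-fold lower, relative log2 change -1.94, SE 0.05, limma adjusted p = 4.12e-10). RBCS1B had the largest fall of the family, with 186, 190 and 194 TPM at 0 D and 40.7, 38.4 and 41.2 TPM at 6 D (relative change -2.50), while RBCS2B went from 315 ± 3.56 to 234 ± 2.03 TPM (SD, n = 3, relative change -0.71). Among antenna proteins, LHB1B1 fell from 1360 ± 43.7 to 488 ± 6.91 TPM and its near copy LHB1B2 was at 5151 ± 123 and 4768 ± 105 TPM (SD, n = 3). LHB1B2 was not called on the deposited TPM and was called lower after median-of-ratios scaling. CAB1 fell from 7811 ± 213 to 4815 ± 161 TPM (SD, n = 3). The copies within RBCS1B, RBCS2B and RBCS3B, within CAB1, CAB2 and CAB3, and within LHB1B1 and LHB1B2 are nearly identical, so their division is uncertain.

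Tetrapyrrole synthesis, which makes chlorophyll and haem, was lower at several steps. Of 16 tested genes 2 were higher and 10 lower (0 and 13 after scaling), with a median relative change of -0.84. HEMC (AT5G08280), porphobilinogen deaminase, had 80.5, 83.4 and 85.1 TPM at 0 D and 30.1, 31 and 32.3 TPM at 6 D, and the magnesium chelatase subunit CHLI1 93.2, 102 and 110 and then 39, 45.3 and 39.3 TPM. Both groups were well apart for each gene, with relative changes of -1.67 and -1.57. HEMA1, which controls entry to the pathway, and CH1, which makes chlorophyll b, had relative changes of 0.00 and 0.15 and were called higher on the deposited TPM but not after median-of-ratios scaling. Photorespiration was divided, with 5 higher and 5 lower of 10 (4 and 5 after scaling). The aminotransferase gene GGT1 rose from 128 ± 13.2 to 261 ± 2.49 TPM (SD, n = 3).

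Plastid transcripts held a similar share of the total in both groups. Plastid loci made up 69.8% ± 0.846 at 0 D and 69.1% ± 0.405 at 6 D (SD, n = 3), a difference of -0.695 percentage points that did not pass a two-sided exact permutation test (p = 0.3). Mitochondrial loci made up 0.837% ± 0.0344 and 1.08% ± 0.0427 (SD, n = 3), a difference of 0.242 points with an exact permutation p = 0.1, the smallest that 3 libraries against 3 allow. Every 6 D library had a larger mitochondrial share than every 0 D library. Of 71 plastid loci tested 24 were called higher and 19 lower on the deposited TPM, and 3 and 44 after scaling, so the number of plastid loci called in each direction depended on the scaling. Under both scalings 3 were higher and 19 lower. Of 62 mitochondrial loci 25 were higher and 4 lower, against 12 and 18 after scaling. These shares do not give transcripts per cell.

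**Figure D3:**
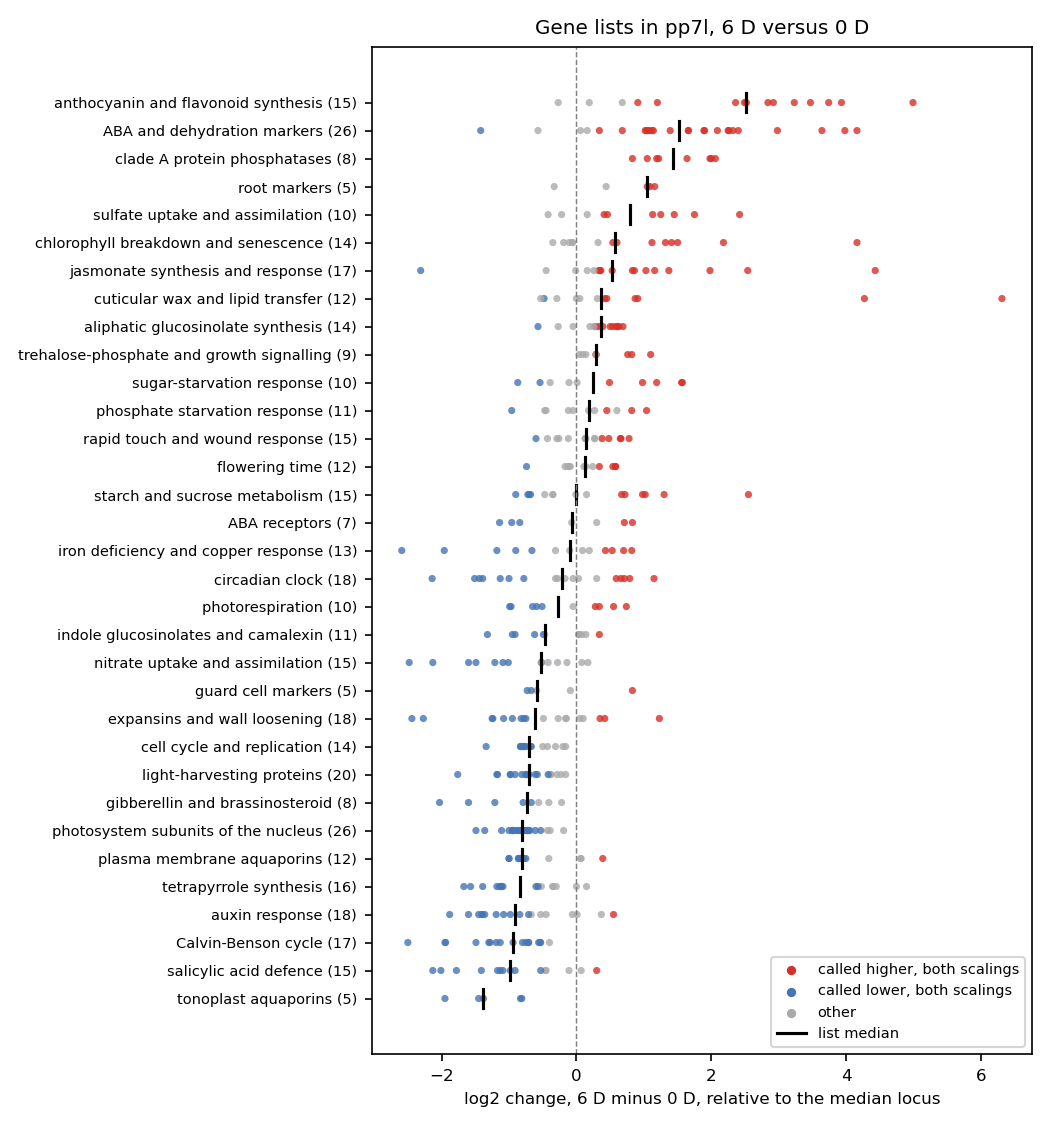
Relative log2 change of each tested member (points) in lists of genes, ordered by the list median (black bar), with the number tested in brackets. Red and blue points were called higher or lower under both scalings and grey points were not; anthocyanin genes (median 2.52) and ABA and dehydration markers (1.52) lie at the top and tonoplast aquaporins (-1.38) at the bottom.

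Genes of water transport were more often called lower than higher. All 5 tested of 9 tonoplast aquaporins, the water channels of the vacuole, fell under both scalings, with a median relative change of -1.38. DELTA-TIP (AT3G16240) had 182, 173 and 175 TPM at 0 D and 52, 55.3 and 57.8 TPM at 6 D (3.21-fold lower, relative log2 change -1.95, SE 0.07, limma adjusted p = 2.61e-09). Of 12 plasma membrane aquaporins 3 were higher and 8 lower (1 and 9 after scaling). PIP2A fell from 170 ± 2.84 to 122 ± 1.77 TPM, and PIP2;5 rose from 4.49 ± 0.476 to 7.75 ± 1.04 TPM (SD, n = 3).

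Expansins loosen cell walls as cells enlarge. Of 18 tested expansin and wall-loosening genes 5 were higher and 9 lower (3 and 11 after scaling). EXPA1 (AT1G69530) had 53.9, 53.5 and 47.9 TPM at 0 D and 12.4, 11.8 and 12.7 TPM at 6 D (relative change -2.27, SE 0.08, limma adjusted p = 3.73e-09). EXPA8 had 20, 22.6 and 20.6 TPM and then 3.94, 3.33 and 4.62 TPM. TCH4, a wall-modifying enzyme induced by touch, rose from 7.61 ± 1.32 to 23.3 ± 0.839 TPM (SD, n = 3).

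Hormone and cell cycle genes of growth were mostly lower. Of 18 auxin response genes 3 were higher and 11 lower (1 and 14 after scaling), with a median relative change of -0.91. SAUR20, one of the small auxin-induced genes that share sequence, fell from 31.4 ± 0.447 to 9.87 ± 2.22 TPM (SD, n = 3), whereas the repressor gene IAA2 rose from 10.3 ± 1.75 to 19.1 ± 1.6 TPM (SD, n = 3). Of 8 gibberellin and brassinosteroid genes 0 were higher and 5 lower (0 and 7 after scaling), and the gibberellin-regulated GASA1 fell from 54.5 ± 4.66 to 15.5 ± 1.4 TPM (SD, n = 3). Of 14 cell cycle and replication genes 0 were higher and 9 lower (0 and 11 after scaling). PCNA1, the sliding clamp of DNA replication, fell from 6.27 ± 0.418 to 2.48 ± 0.111 TPM (SD, n = 3).

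The 12 largest falls also included genes outside these lists. GER3 had 309, 298 and 305 TPM at 0 D and 29.4, 28.3 and 31.8 TPM at 6 D (10.2-fold lower, relative log2 change -3.59, SE 0.07, limma adjusted p = 1.03e-11). PCR1, a small membrane protein linked to cadmium resistance, had 150, 150 and 143 TPM and then 19.8, 18.9 and 21 TPM. AT3G05730, annotated as defensin-like, fell with a relative change of -2.83, and the methionine sulfoxide reductase gene MSRB6 with -2.51. The histone superfamily gene AT1G09200 fell from 53.8, 49.3 and 53.2 TPM to 11.3, 11.5 and 13 TPM. Its sequence is shared with other histone genes, which makes its value uncertain.

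Nutrient genes did not move as 1 group. Of 15 nitrate genes 2 were higher and 8 lower (0 and 12 after scaling), with a median relative change of -0.52. The high-affinity nitrate transporter NRT2:1 fell from 8.65 ± 0.405 to 1.69 ± 0.323 TPM, and the nitrate reductase gene NIA1 from 12.3 ± 1.24 to 4.33 ± 0.319 TPM (SD, n = 3). Of 11 phosphate starvation genes 6 were higher and 1 lower (3 and 3 after scaling). Of 13 iron and copper genes 6 were higher and 5 lower (4 and 6 after scaling), and the copper-zinc dismutase gene CSD1 was called in opposite directions by the scalings, at 53.9 ± 1.66 and 61.2 ± 1.66 TPM (SD, n = 3). The iron stores diverged, with the ferritin gene FER1 rising from 40.4 ± 1.53 to 87.7 ± 3.53 TPM and FER3 falling from 15.6 ± 1.42 to 4.25 ± 1.1 TPM (SD, n = 3). Of 14 aliphatic glucosinolate genes 12 were higher and 1 lower (9 and 2 after scaling), and of 11 indole glucosinolate and camalexin genes 3 were higher and 5 lower (1 and 6 after scaling).

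Circadian clock genes moved in both directions. Of 18 tested, 6 were higher and 7 lower (5 and 8 after scaling). CCA1 (AT2G46830), a MYB factor with a morning peak, had 0.899, 0.959 and 1.6 TPM at 0 D and 4.48, 4.92 and 4.88 TPM at 6 D (relative change 1.15, SE 0.15, limma adjusted p = 6.39e-06). Its partner LHY rose with a relative change of 0.59, and the morning and daytime genes PRR9, PRR7 and RVE8 with 0.79, 0.71 and 0.66. Several evening genes fell. TOC1 (AT5G61380), a repressor of CCA1, had 7.13, 6.74 and 8.54 TPM and then 4.01, 4.06 and 4.33 TPM, and PRR5 (AT5G24470) 9.8, 8.29 and 9.77 TPM and then 4.24, 3.28 and 3.34 TPM. PCL1 (LUX) and ELF4, of the evening complex, fell with relative changes of -1.13 and -1.51, the light-regulated F-box gene FKF1 with -1.39 and COR27 with -2.14. ELF4 and COR27 had means of 0.113 and 0.515 TPM at 6 D. ELF4 passed the filter only through the 0 D group and could only come out lower. GI, which also peaks late in the day, did not pass, at 9.5 ± 1.29 and 10.3 ± 1 TPM (SD, n = 3). The labels used here give no hour of harvest, and its part in the result was not tested.

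The evening element AAAATATCT, which CCA1 and LHY bind, was present on either strand in the 250 bases before the start of 7 of the 18 clock genes. Of these 7 genes 6 were called lower and 0 higher (7 lower after scaling). Of the 11 without it 1 was lower and 6 were higher. The element was in 2.6% of all 15351 promoters. Windows of 3 of the genes that fell are printed below from the same RefSeq annotation, with every match in capitals, to show where the copies lie relative to the gene, which begins after the last base. GRP7, a clock-controlled RNA-binding protein, has 3 matches, and TOC1 and PRR5 have 1 each.
GRP7 chr2:9266558-9266807, minus strand: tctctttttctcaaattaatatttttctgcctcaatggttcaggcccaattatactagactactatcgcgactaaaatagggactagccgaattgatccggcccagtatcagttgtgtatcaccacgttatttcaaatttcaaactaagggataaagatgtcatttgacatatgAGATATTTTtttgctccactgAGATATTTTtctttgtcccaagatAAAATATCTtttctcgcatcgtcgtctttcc
TOC1 chr5:24674713-24674962, plus strand: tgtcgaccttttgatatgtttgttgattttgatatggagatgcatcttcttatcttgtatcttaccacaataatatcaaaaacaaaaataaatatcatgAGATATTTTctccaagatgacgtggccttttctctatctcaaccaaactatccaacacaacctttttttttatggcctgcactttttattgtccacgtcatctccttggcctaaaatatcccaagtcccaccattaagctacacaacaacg
PRR5 chr5:8358547-8358796, minus strand: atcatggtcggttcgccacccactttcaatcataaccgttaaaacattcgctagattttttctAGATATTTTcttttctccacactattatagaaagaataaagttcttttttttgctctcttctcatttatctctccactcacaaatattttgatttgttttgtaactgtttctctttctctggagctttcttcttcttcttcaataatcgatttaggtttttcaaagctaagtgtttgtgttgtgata
The 3 copies of GRP7 lie in the later bases of its window, nearer the start than the single copies of TOC1 and PRR5. GRP7 fell from 42.4 ± 2.12 to 30 ± 5.47 TPM (SD, n = 3). A match is a description of the sequence, and ELF4 fell with none in its window.

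**Figure D4:**
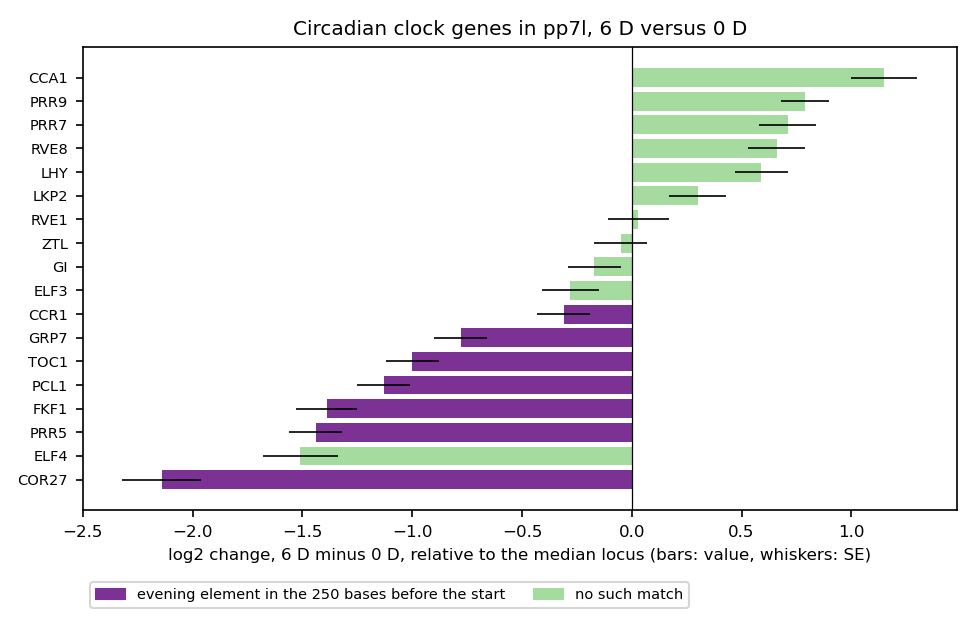
Bars give the relative log2 change from 0 D to 6 D in pp7l of the 18 tested clock genes and whiskers its standard error. Purple bars are the 7 genes with the evening element in the 250 bases before the start and green bars the 11 without; CCA1 is at 1.15, and the purple bars are all below 0. PCL1 is LUX and CCR1 is GRP8.

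Lists of other stresses and of development gave mixed counts. Of 14 heat shock protein genes 4 passed the filter, and 3 were higher and 1 lower under both scalings. HSP70 rose from 1.14 ± 0.0285 to 8.89 ± 0.301 TPM (SD, n = 3). Of 15 rapid touch and wound genes 9 were higher and 1 lower (5 and 1 after scaling), with a median relative change of 0.14. Of 10 sugar-starvation genes 6 were higher and 2 lower (5 and 3 after scaling), and the asparagine synthetase gene ASN1 rose from 6.62 ± 0.667 to 20.1 ± 1.24 TPM (SD, n = 3). Flowering-time genes had 7 higher and 1 lower of 12 (4 and 1 after scaling), and the 8 floral organ identity genes were all below the filter. Of 4 tested genes of the PP7 family and its partners, 2 were higher and 0 lower (1 and 1 after scaling), and PP7 itself was at 6.34 ± 0.308 and 6.74 ± 0.392 TPM (SD, n = 3).

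Markers of other organs were compared because whole plants were sampled. Of 13 root markers 5 passed the filter, 4 were higher and 0 lower (3 and 0 after scaling), and their summed level over the list was 35.9 to 42.9 TPM at 0 D and 93.1 to 96 TPM at 6 D. The root beta-glucosidase gene PYK10 had 24.9, 25.3 and 29.5 TPM and then 67.5, 68.7 and 68.4 TPM, while CASP1, of the Casparian strip, was at 0.983 ± 0.389 and 0.913 ± 0.329 TPM (SD, n = 3). The part of root tissue in the other results was not tested. Guard cell markers summed to 40.1 to 45.5 TPM at 0 D and 42.4 to 48.7 TPM at 6 D, with 1 higher and 2 lower of 5 tested (1 and 3 after scaling), and shoot meristem markers to 12.8 to 15 and 14.7 to 15.4 TPM. All 8 pollen and stamen markers were listed at 0, and no seed marker exceeded 0.322 TPM. Light-harvesting transcripts, as leaf markers, summed to between 33104 and 33892 TPM at 0 D and between 24343 and 25324 TPM at 6 D.

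The change from 0 D to 6 D was then compared with that of the accession Col-0 (written Col0), which had 3 libraries at 0 D and 2 at 6 D (replicates 1 and 3). In 1 limma fit of these 11 libraries, 138 of 16017 loci (0.862%) passed a test of the difference in change, 86 with a higher (0.537%) and 52 with a lower change in pp7l (0.325%). The 2 Col0 libraries at 6 D stood apart from each other, with 86.7% and 67.1% plastid TPM and with 17976 and 21845 loci above 0. The count was 4170 without the library of replicate 1 and 10047 without that of replicate 3. It was 6 or 7 without any 1 of the pp7l libraries at 6 D, and 34 to 44 without any 1 of the 0 D libraries of either genotype. The part of the plastid share in the differences was not tested.

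Anthocyanin and clock genes were among those that differed in change. In the anthocyanin list 7 of the 15 genes passed this test, all with a larger rise in pp7l, and in the clock list 6 of the 18, all with a lower change in pp7l. Of these, the anthocyanin gene AT1G03940 and the clock gene ELF4 were below 1 TPM in every Col0 library. ELF4 passed the filter only through pp7l at 0 D, so its difference was fixed in advance. DFR had a difference in log2 change of 4.25 (SE 0.70, limma adjusted p = 0.0189), and LDOX one of 3.33 (SE 0.37, adjusted p = 0.00236). PRR5 differed by -3.07 (SE 0.34, adjusted p = 0.00236). In Col0 it had 0.912 ± 0.138 TPM at 0 D (SD, n = 3) and 5.17 and 7.31 TPM in the 2 libraries at 6 D, so that it was lower than in pp7l at the start and went up. LDOX, PRR5 and LEA4-5 (difference 3.46, adjusted p = 0.00258) passed in all 19 alternative fits, whereas DFR passed in 9 of 19. RBCS1A differed by -0.07 (adjusted p = 0.969), but with 2 Col0 libraries that disagree this does not show like changes.

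The levels of 6 genes over the whole series placed the 6 D values in time, given side by side without a test. LTP3 stayed at 200 to 293 TPM in the later pp7l groups, while in Col0 it had 12.4 and 185 TPM at 6 D and means of 818 and 1276 TPM at 9 D and 12 D. VSP2 had its highest mean in pp7l at 6 D (383 TPM), with 296, 224 and 87 TPM at 9, 12 and 15 D, and in Col0 no group mean above 53.3 TPM. DFR in pp7l went from 97.8 TPM at 6 D to 26.7 TPM at 9 D and 123 TPM at 12 D, and in Col0 had 1.77 and 11.5 TPM at 6 D and a mean of 134 TPM at 9 D. GER3 was at 304 TPM in pp7l and 103 TPM in Col0 at 0 D, and stayed between 19.8 and 43.1 TPM in later pp7l groups. Its difference in change between the genotypes at 6 D was -0.86 (SE 0.96, limma adjusted p = 0.697).

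The clock genes CCA1 and PRR5 did not hold their 6 D levels. CCA1 in pp7l had a mean of 4.76 TPM at 6 D and 2, 2.01 and 3.45 TPM at 9, 12 and 15 D, and in Col0 0.426 and 1.29 TPM at 6 D and 11.7 TPM at 12 D. PRR5 in pp7l had 3.62 TPM at 6 D and means of 14.2 to 18.6 TPM afterwards, above the 9.28 TPM at 0 D. Among the pp7l means, CCA1 was above PRR5 at 6 D and below it at 0, 9, 12 and 15 D.

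**Figure D5:**
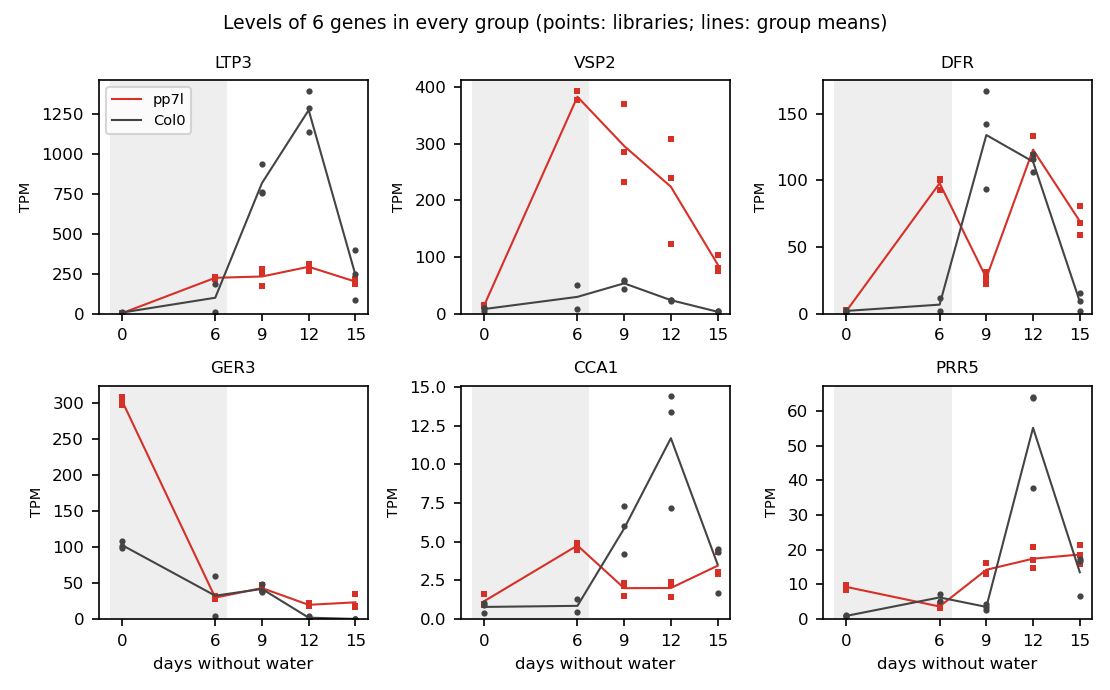
TPM of 6 genes (linear axes) against days without water, with points for libraries and lines through group means, in pp7l (red squares) and Col0 (black circles); shading marks the 0 D and 6 D groups compared here. At 6 D the pp7l libraries of LTP3 lie at 218 to 229 TPM and those of VSP2 at 378 to 393 TPM, while the 2 Col0 libraries are far apart for LTP3 (12.4 and 185 TPM).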

How the data were processed

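RNA sequencing libraries (Illumina TruSeq, total RNA of whole plants, per the labels' protocols) were trimmed with Trimmomatic, checked with FastQC and quantified with Salmon on a TAIR10 basis, per the submitters' processing notes, which state no versions. The authors deposited TPM per locus, including plastid, mitochondrial and rRNA loci. Counts were not used here, so depth and counting error are unknown, and the number of libraries limits the precision. All 29 columns matched a sample by genotype, day and replicate, and 0 library pairs were identical.

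Tests covered the 15522 loci that reached 1 TPM in 3 or more of the 6 pp7l libraries at 0 D and 6 D. They were made with limma 3.58.1 (R 4.3.3) on log2(TPM + 1), with a variance trend, no further scaling and 4 residual degrees of freedom before moderation. P-values were adjusted by Benjamini-Hochberg over all of them at 0.05. A locus that passes the filter through 1 group only is bound to differ, so counts describe the loci tested. The difference in change from Col0 was fitted in the same way on 11 libraries. Shares of TPM were compared by two-sided exact permutation tests. The steps were tested on simulated data. Changes were planted in a small share of the loci. The 6-library test recovered nearly all of these planted changes. The 11-library difference test recovered 0% of planted log2 changes of 1 and 6.25% of those of 2. It recovered 50% of planted log2 changes of 4 and 95% of those of 6. A gene not called by the difference test is therefore not shown to change alike. For both tests recovery was split by size of change and not by level. It therefore does not show how often changes of loci with few TPM are found.

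Gene names and 250-base promoter windows came from the RefSeq annotation of TAIR10.1, in which 32954 of 33681 loci were found. Plastid and mitochondrial loci were recognised by identifier and are not named. Genes named are the 12 largest rises and 12 largest falls among called loci averaging at least 10 TPM in either group and no overlap between groups (1642 and 1410 candidates), PP7L, and members of 39 lists. Each list is described by its counts and median, without a set test, and the shares over all loci are given with the first list. Comparison, lists and rules were chosen with earlier results of these data known, and which list members appear was chosen by their values. Alternatives changed the pseudocount, filter, scaling, loci in the total, libraries in the fit and variance trend and left out single libraries. Replicate numbers were also entered as a block. Figures were drawn with matplotlib 3.10.9.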

Additional observations from a re-analysis of the deposited data

Results flagged for a closer look

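Among the 465 named genes and list members, 29 had a change from 0 D to 6 D in pp7l that differed from that in Col0 (limma interaction test on 11 libraries, Benjamini-Hochberg adjusted p under 0.05), with a higher change in pp7l for 18 and a lower one for 11. Of the 465, the 12 largest rises and 12 largest falls were chosen by their change in the same pp7l libraries, which favours a difference from Col0. Values are differences in log2 change, pp7l minus Col0. All 29 kept their sign in every alternative fit that could be made, and 3 (LEA4-5, LDOX and PRR5) also passed in every one. The call of the others was lost in some fits, and the least stable passed in 5 of their alternatives. Fits that leave out a Col0 library at 6 D keep a lone library in that group and take its spread from the remaining groups. Passing in these fits therefore adds little. LTI65, HAI3, AT1G03940, DIN2, BGLU22, ELF4 and ALD1 were below 1 TPM in every Col0 library and passed the filter only through pp7l. LTI65 and HAI3 passed only through the 6 D group of pp7l, and ELF4 only through its 0 D group. The differences of LTI65, HAI3 and ELF4 were therefore fixed in advance, and the filter could favour a difference for the others. The 2 Col0 libraries at 6 D had 86.7% and 67.1% plastid TPM, and the part of this gap in the differences was not tested.

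ABA and dehydration genes with a larger rise in pp7l were AT3G02480 (4.4, LEA family), LEA4-5 (3.46), RAB18 (2.83) and LTI65 (2.46), with the phosphatase genes HAI1 (1.47) and HAI3 (2.1). The receptor gene PYL4 had a lower change, by -2.15. AT2G37870, of the inhibitor and lipid transfer superfamily, differed by 5.08 and the nudix hydrolase gene NUDT24 by 2.47.

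Anthocyanin genes with a larger rise were DFR (4.25), GSTF12 (3.82), LDOX (3.33), AT4G14090 (3.27), AT1G03940 (2.42), TT7 (2.23) and UF3GT (2.13). GSTF12 had an adjusted p of 0.0466 (limma), 0.18 at most over the alternatives, and passed in 5 of 19.

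Clock genes with a lower change in pp7l were GRP7 (-4.73), PRR5 (-3.07), COR27 (-2.90), FKF1 (-2.73), TOC1 (-1.77) and ELF4 (-1.63). GRP7 rested on unequal libraries, with a mean of 11.9 TPM in Col0 at 0 D and 588 and 97.6 TPM at 6 D. The remaining genes were the wall enzyme gene TCH4 (4.04), the beta-glucosidase genes BGLU22 (1.36, a root marker) and DIN2 (1.04), the gibberellin-regulated GASA1 (-2.61), AT1G07050 (-2.59), the sugar-starvation gene DIN10 (-2.37) and the defence gene ALD1 (-1.29).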

How the results depend on the processing

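Of the called loci of pp7l at 6 D against 0 D (9702, with 7215 higher and 2487 lower), a filter of 5 TPM left 5167 with 3308 higher. The fit to all 29 libraries, in which the spread of the other groups enters, left 3892 (3126 higher, 766 lower), and all 3892 were among the 9702 with the same direction. Higher and lower loci numbered 4104 and 4604 once scaled by median of ratios. Pseudocount 0.1 gave 9523, no filter 10265, plastid, mitochondrial and rRNA loci left out 10246 and no variance trend 9595. With each library left out the counts were 7764 to 9689 called, 5490 to 7524 higher and 2165 to 2354 lower. Same-numbered replicates correlated by -0.0143 to 0.0287 after group means were removed, so the numbers do not pair the libraries, and the fit with a replicate block gave 9808 called.

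The difference from Col0 (138 loci, 86 higher and 52 lower) depended on most choices. Counts called, higher and lower were 26, 14 and 12 with pseudocount 0.1, 51, 33 and 18 with a filter of 5 TPM, 1260, 852 and 408 after median-of-ratios scaling, 1111, 271 and 840 without plastid, mitochondrial and rRNA loci, 765, 435 and 330 with all 29 libraries and 58, 44 and 14 with the replicate block. Without a filter 87 were lower. With each library left out the ranges were 6 to 10047 called, 5 to 8773 higher and 1 to 3616 lower. The cause was not tested.

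Of 1260 counts of list members over all alternatives, 1055 stayed within 1.5 times and 205 did not, of which 55 were in the fit to all libraries and 30 after median-of-ratios scaling. All 321 values of the 24 named genes kept direction and call, with adjusted p up to 0.00853 (limma). The plastid difference ranged from -1.12 to -0.276 points and the mitochondrial one from 0.217 to 0.26 without single libraries, and was -0.439 and 0.246 when nuclear rRNA loci were left out of the total. Organelle rRNA is not named in the annotation and stayed in. Without counts, differences at low TPM could not be set against counting error.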

Other observations

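Transcripts for ribosomal proteins were lower at 6 D. Among 304 tested of 340 loci whose RefSeq product name holds the words ribosomal protein, 221 were called lower and 18 higher, with a median relative log2 change of -1.05, and 256 were lower and 6 higher after median-of-ratios scaling. Falls of at least 2-fold on the deposited TPM were found for 92 of the tested loci. Over all loci tested 16.0% were lower and 46.5% higher. This set was chosen after its values were seen, and the description is of these libraries. The motif GGGCCCA, searched on both strands in the 250 bases before the start, was in 6.9% of their promoters and in 2.1% of all 15351. Histone genes, chosen in the same way, had 27 lower and 6 higher of 37 tested (30 and 5 after scaling), with a median relative change of -0.95, while the linker histone gene HIS1-3 rose by 4.18. Many histone genes share sequence, and their single values are uncertain.

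Rises among LEA and lipid transfer genes belonged to some members. Of 95 loci with a LEA or dehydrin product name 34 were tested, with 23 higher and 2 lower (13 and 4 after scaling) and a median relative change of 0.22, up to 5.22 for AT3G02480. Of 132 loci with a lipid transfer product name 49 were tested, with 19 higher and 18 lower (16 and 25 after scaling) and a range of -2.09 to 6.31. At the edge of detection, 13 loci were listed at 0 in all 0 D libraries and had at least 1 TPM in all 6 D libraries, and 3 loci the reverse.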
